A study of Mus musculus with 4 samples.

Results

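The ribosomal protein genes of the mouse were followed in endothelial cells and pericytes of the hyaloid vessels, the transient vasculature of the vitreous body. Members were the genes whose symbol is Rpl or Rps followed by a number and at most 1 letter (a, b, l, x or y), together with Rplp0, Rplp1, Rplp2 and Rpsa. This rule found 80 of 32285 genes, 49 of the large and 31 of the small ribosomal subunit. The rule reads only the symbol. The cells came from vitreous bodies of pups at postnatal day 6 that carried floxed Gpr124 alleles, all of them given tamoxifen in the first days of life. Gpr124 dEC/dEC pups also carried VECad-Cre-ERT2, an inducible Cre under the vascular endothelial cadherin promoter that deletes Gpr124 in endothelial cells but not in pericytes, and Gpr124 fl/fl littermates had no Cre. Vitreous bodies were pooled by genotype into 1 suspension each, so a genotype counts as 1 sample. From each suspension 2 plates of 384 wells were filled, by CD31 in the first and by PDGFRB in the second, but part of the dEC/dEC PDGFRB plate was filled by CD31.

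A ribosome has a small subunit, which reads the mRNA, and a large subunit, which joins amino acids. Each of its proteins is present in about 1 copy per ribosome, except the P stalk proteins, and their mRNAs are among the most abundant of a growing cell. These mRNAs belong to the TOP class: they begin with a C followed by a run of pyrimidines, through which their translation follows growth signals sent by the mTORC1 kinase. A share of ribosomal protein mRNA among all mRNA is therefore often read beside growth state, but it also moves when other mRNAs become more or less abundant.

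The starts of a few members are printed to show what this class looks like. Rpl15, Rps21 and Rps26 are shown because they passed the class test below, and Rpl38, Rplp2 and Rpl14 because they hold the run, so the printed set is richer in it than the members at large. The RefSeq table of start sites (GRCm38.p6) held 60 of the 80 members. At 1 of its annotated starts or more, 13 of these 60 (21.7%) had a C as the first base with at least 4 pyrimidines (C or T) directly after it, against 3.01% of all 27025 genes in the table. Annotated starts can lie some bases from the true ones, so a start without the run says only that these letters are not at that base. Each line below gives the 15 bases before the start and the first 15 bases of the transcript, 5′ to 3′ on the gene's own strand, with the pyrimidine run in capitals.
Rpl15, chr14:18270972-18271001, minus strand: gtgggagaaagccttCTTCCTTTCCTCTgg
Rps21, chr2:180257364-180257393, plus strand: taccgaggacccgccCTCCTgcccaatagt
Rps26, chr10:128626492-128626521, minus strand, with no run at the annotated start: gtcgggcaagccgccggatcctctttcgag
Rpl38, chr11:114668565-114668594, plus strand: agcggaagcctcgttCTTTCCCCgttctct
Rplp2, chr7:141447636-141447665, plus strand: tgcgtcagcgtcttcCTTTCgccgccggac
Rpl14, chr9:120571502-120571531, plus strand: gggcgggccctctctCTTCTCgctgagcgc
The run was 13 bases long in Rpl15 and 5 in Rps21 and Rplp2. Rps29 and Rps20 had no entry. Rplp0, Rpl5, Rpl11, Rpl10a, Rpl22, Rpl24 and Rps25, described by role below, had entries without the run.

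Transcripts were counted by unique molecular identifiers (UMIs), random tags that mark single captured molecules. A well was kept with 1000 to 8000 UMIs of mouse genes after the plates had been scaled to the highest plate median, and with under 10% of them from the mitochondrial genome. A kept well was called endothelial with Cldn5 and no Pdgfrb UMIs, and a pericyte with Pdgfrb and no Cldn5 UMIs. Of 1536 wells, 42 were kept, and these held 11 endothelial cells and 21 pericytes. The plates held 51972 to 174645 mouse UMIs, the endothelial cells 1104 to 6901 and the pericytes 1309 to 7222 UMIs each. The calls were checked on 15 markers each: endothelial markers took 120 to 193 UMIs per 10000 in the 4 endothelial sums against 6.83 to 9.44 in the 3 pericyte sums, and pericyte markers 12.3 to 40.2 against 156 to 236. The lists include Cldn5 and Pdgfrb, which set the classes and so are 0 in the other class by rule. They gave 68 of the 472 endothelial marker UMIs in endothelial cells and 135 of the 1746 pericyte marker UMIs in pericytes. Macrophage markers took 3 UMIs in all endothelial cells and 15 in all pericytes, with 5 of 12 at 0 in both. Adgra2, the gene that encodes GPR124, had 0 UMIs in the 6 dEC/dEC endothelial cells and 3 UMIs in the 5 fl/fl endothelial cells, too few to check the deletion. For 10 of the 32 cells a well of at least 1000 UMIs on another plate carried an identical barcode. The same 384 barcodes were listed for every plate, so this alone does not mark a cell as duplicated. Erythroid markers took 241 UMIs in endothelial cells and 59 in pericytes. Astrocyte markers took 26 and 11, with 7 of 9 at 0 in both, and lens markers 0 and 107, with 10 of 12 at 0 in both and 106 of the UMIs from Cryab, a small heat shock protein that fell in endothelial cells in the class test below.

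Ribosomal protein genes took a larger share of the UMIs in endothelial cells than in pericytes in every plate that held both. Summed over cells, they gave 3737 of 31048 UMIs in endothelial cells, or 12.04% (95% Clopper-Pearson interval 11.7 to 12.4%), and 5376 of 80460 in pericytes, or 6.68% (6.51 to 6.86%). These intervals cover counting error only. In the dEC/dEC CD31 plate the 4 endothelial cells gave 9.69%, and this plate held no pericytes. In the dEC/dEC PDGFRB plate the share was 11.8% in 2 endothelial cells and 6.90% in 12 pericytes, a ratio of 1.71. In the fl/fl CD31 plate it was 9.08% in 2 endothelial cells and 5.62% in 6 pericytes, a ratio of 1.62. In the fl/fl PDGFRB plate it was 15.9% in 3 endothelial cells and 7.28% in 3 pericytes, a ratio of 2.18. The mean over plate sums was 11.6% ± 3.08 (SD, n = 4 sums) in endothelial cells and 6.60% ± 0.871 (SD, n = 3 sums) in pericytes, and the lowest endothelial sum lay above the highest pericyte sum. A share over the members was given no test. For comparison, wells under 1000 UMIs held 5.56 to 6.17% per plate. Empty wells and wells with a cell of low yield were not told apart among them.

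Single cells of the classes overlapped. Endothelial cells ranged from 5.71 to 17.7% with a median of 12.1%, and pericytes from 2.98 to 12.4% with a median of 6.05%. The 2 lowest endothelial cells, at 5.71% and 5.73%, lay within the pericyte range and near the level of the wells under 1000 UMIs, and the highest pericyte lay above the endothelial median. Spike-in RNA in the wells gave a second scale, with 1 value per cell. Per 1000 spike-in UMIs, endothelial cells held 143 to 1739 ribosomal protein UMIs (median 749) and pericytes 103 to 1008 (median 617), while UMIs of all mouse genes had a median of 7184 in endothelial cells and 8425 in pericytes. On that scale, with plates pooled, the classes overlapped over most of their range. Within each plate that held both classes the endothelial median was the higher. It was 1367 against 688 in the dEC/dEC PDGFRB plate, 674 against 275 in the fl/fl CD31 plate and 1319 against 689 in the fl/fl PDGFRB plate. Each of these endothelial medians rests on 2 or 3 cells. The dEC/dEC CD31 plate, with an endothelial median of 405, held no pericytes.

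**Figure D1:**
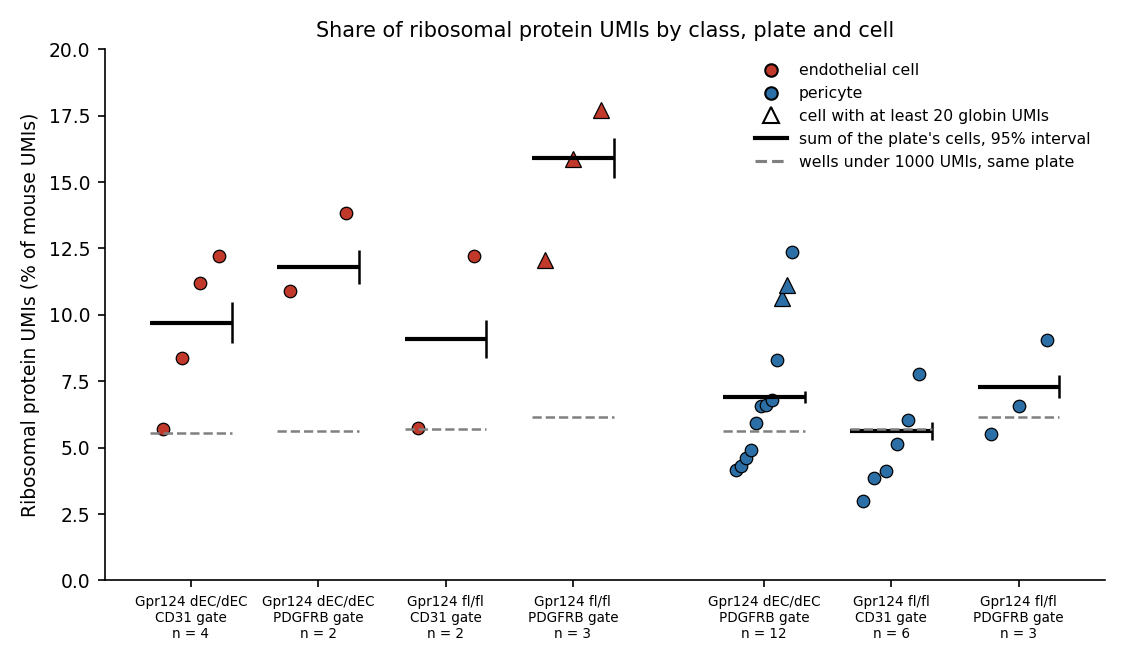
Ribosomal protein UMIs as a percentage of mouse UMIs in each retained cell (points, red for endothelial cells and blue for pericytes, triangles for cells with at least 20 globin UMIs), by plate. Black lines are the sums of a plate's cells with 95% Clopper-Pearson intervals and dashed lines are the wells under 1000 UMIs of the same plate: the 4 endothelial sums lie between 9.08 and 15.9% and the 3 pericyte sums between 5.62 and 7.28%.

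Globin UMIs, from red blood cells or their free RNA, were unevenly spread. The 3 endothelial cells of the fl/fl PDGFRB plate held 63 to 87 globin UMIs and had ribosomal protein shares of 12.1, 15.9 and 17.7%, while the 5 endothelial cells with 0 globin UMIs had 5.73 to 13.8%. Among pericytes, 2 cells of the dEC/dEC PDGFRB plate held 22 and 25 globin UMIs and had 10.6 and 11.1%, and the 13 cells with 0 had 3.84 to 12.4%. Without every cell that held a globin UMI, the shares were 10.9% in endothelial cells and 5.96% in pericytes, and their ratio was 1.82 against 1.80 with all cells. Without the 10 cells of shared barcodes the ratio was 1.74, and with each plate left out in turn it ran from 1.60 (without the fl/fl PDGFRB plate) to 1.91.

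The subunits moved together from cell to cell. Large subunit members took 3.11 to 10.1% of the UMIs of an endothelial cell and 1.53 to 6.85% of those of a pericyte, and small subunit members 2.45 to 7.59% and 1.45 to 5.51%. Across the 11 endothelial cells the large and small subunit shares had Pearson's r = 0.96 and across the 21 pericytes r = 0.95. These shares have the same library and the same total in common, and the correlations are a description. Each UMI of a small subunit gene was matched by 1.25 of a large subunit gene in endothelial cells and 1.32 in pericytes, with plate sums from 1.09 to 1.46 that overlapped between the classes. Within a class, the share was set against the summed level of Eef1a1 and Tpt1, a translation elongation factor and a further TOP mRNA. Pearson's r was 0.63 over endothelial cells and 0.37 over pericytes, with plates pooled, again a description. The endothelial cells of the fl/fl PDGFRB plate, the plate with the highest summed share, held 89.2 to 128 UMIs per 10000 of these genes. The other endothelial cells held 27.2 to 84.0. Within the fl/fl PDGFRB plate the order was the reverse, with 128, 116 and 89.2 in cells with shares of 12.1, 15.9 and 17.7%.

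**Figure D2:**
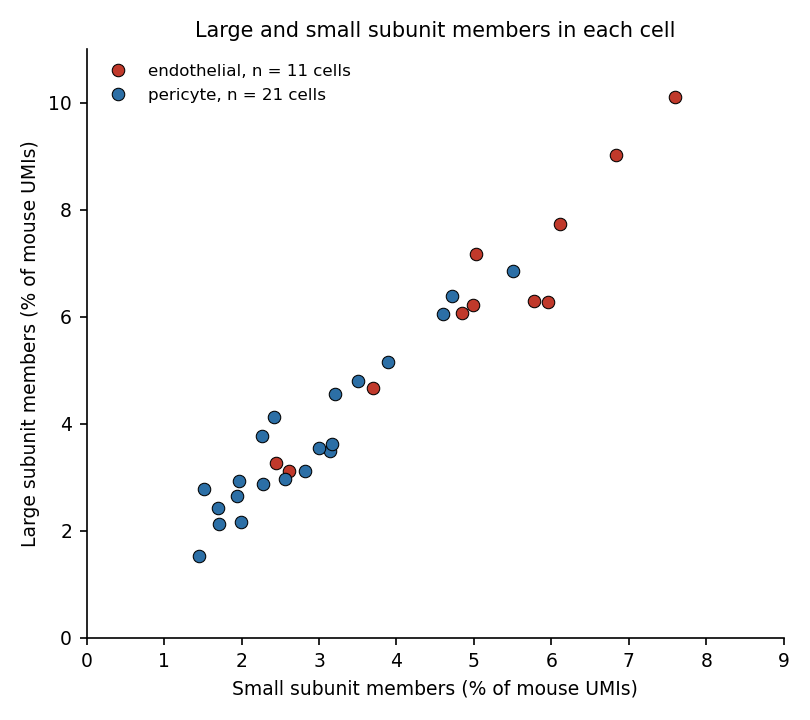
Large subunit members against small subunit members in each cell, both as a percentage of mouse UMIs. Endothelial cells (red, n = 11) reach 10.1% for the large subunit and pericytes (blue, n = 21) 6.85%, and the points of both classes lie along 1 band.

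Gene by gene, nearly all members with enough UMIs lay on the endothelial side, and few passed the test. Of 80 members, Rpl3l (a muscle paralog of Rpl3) had no UMI in any retained cell, 75 had UMIs in both classes and 73 had at least 30 UMIs over both. The ratio of pooled UMIs per 10000, endothelial over pericyte, was above 1 in 72 of these 73 and its exact conditional 95% interval lay above 1 in 54 and below 1 in 0. Of all 617 genes with as many UMIs, 19.4% had an interval above 1 and 27.6% one below, with a median log2 ratio of -0.12 over the 597 with UMIs in both classes against 0.86 over the 73 members. The 73 ran from -0.00 for Rpl29 to 1.96 for Rpl14, both of the large subunit. Rpl29 shares the end of its transcript with other genes, as described below, so its level is uncertain. The order of the members was similar in the classes (Spearman's rho = 0.83 over 80 genes, a description).

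Endothelial cells and pericytes were then tested over the 7 sums per class and plate with edgeR's quasi-likelihood test. The filter on low counts left 148 genes, 56 of them members, and 24 members were not tested. With TMM scaling over the genes tested, 10.1% of the 148 were higher in endothelial cells and 24.3% lower at an adjusted p under 0.05 (Benjamini-Hochberg). Of the 56 members 5 rose in endothelial cells and 0 fell. The members' median log2 fold change was 0.41 and that of all genes tested 0.02. Because members make up so much of the table, the scaling moves with them: with total UMIs as the library size 27 members rose and 0 fell, of 46 genes higher and 23 lower, and the medians were 0.83 for members and 0.44 for all genes. With TMM over the genes that are not members 27 rose, of 48 higher and 21 lower, with medians of 0.89 and 0.50. The members' median lay 0.39 above that of all genes, members included, in each of these 3 fits. A change of scaling moves all genes by about the same amount, so the 3 fits could hardly differ in this gap. In UMIs per 10000, every endothelial sum lay above every pericyte sum in 22 of the 56 members (27% of the genes tested) and below in 0 (13.5%). The plates of a genotype share a suspension, so these p-values measure the spread between plates of 2 suspensions and not between animals.

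Of the 5 members that rose, 4 belong to the small subunit. The members tested were 25 of the small and 31 of the large subunit, with median log2 fold changes of 0.56 and 0.40. A difference between the subunits was not tested. Rps29 (ENSMUSG00000034892, chr12:69157722-69159186 in GRCm38), a short zinc-binding protein of the small subunit, was the most abundant member. Its endothelial sums held 20.3, 44.3, 24.1 and 45.8 UMIs per 10000, in the order dEC/dEC CD31, dEC/dEC PDGFRB, fl/fl CD31 and fl/fl PDGFRB, and its pericyte sums 14.7, 12.8 and 16.3, in the order dEC/dEC PDGFRB, fl/fl CD31 and fl/fl PDGFRB. The lowest endothelial sum stood above the highest pericyte sum, and the PDGFRB plates were the high ones among the former. The log2 fold change was 0.83 (SE 0.28, adjusted p = 0.0136 by edgeR).

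Rpl15 (ENSMUSG00000012405, chr14:18267823-18271391), a large subunit protein, had the largest log2 fold change of the 5, at 1.11 (SE 0.39, adjusted p = 0.0142 by edgeR). Its endothelial sums held 15.2, 18.1, 17.7 and 24.6 UMIs per 10000 and its pericyte sums 8.69, 4.996 and 4.26, without overlap. Rps26 (ENSMUSG00000025362, chr10:128624534-128626747), which lies at the mRNA exit of the small subunit, held 18.6, 21.1, 16.1 and 25.7 against 9.31, 7.77 and 6.39, with a log2 fold change of 0.91 (SE 0.36, adjusted p = 0.0334 by edgeR).

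Rps21 (ENSMUSG00000039001, chr2:180257377-180258445) held 15.2, 15.1, 11.2 and 31.3 UMIs per 10000 in the endothelial sums against 8.89, 2.78 and 8.51 in the pericyte sums. The fl/fl PDGFRB plate, whose endothelial cells carried the globin UMIs, was its high sum. Its log2 fold change was 0.97 (SE 0.39, adjusted p = 0.0336 by edgeR). Rps20 (ENSMUSG00000028234, chr4:3831334-3835665), a small subunit protein, held 23.6, 33.2, 20.9 and 29.0 against 12.8, 8.33 and 14.9, again without overlap, and its log2 fold change was 0.76 (SE 0.30, adjusted p = 0.0344 by edgeR).

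These calls were not firm. With DESeq2 on the same sums 1 member was called and without the 10 cells of shared barcodes 0, with 5 at an unadjusted p under 0.05, and when each plate was left out in turn the count ran from 1 without the dEC/dEC PDGFRB plate to 10 without the dEC/dEC CD31 plate, with 2 and 3 without the fl/fl CD31 and PDGFRB plates. In each of these settings the fold changes of the 5 were positive. Without a filter on low counts 0 were called, with 0 members higher at an unadjusted p under 0.05 and the 5 fold changes still positive. With class taken from the sort gate in place of the markers 0 were called, also with 0 at an unadjusted p under 0.05, and all 5 turned negative, to between -0.27 and -0.031 on the log2 scale. The gate did not separate the marker classes: 6 of the 8 cells that markers named in the fl/fl CD31 plate were pericytes. The fl/fl PDGFRB plate held 3 cells that markers named endothelial and 3 named pericytes. In the dEC/dEC PDGFRB plate 2 of 14 were endothelial, but part of that plate was filled by CD31.

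**Figure D3:**
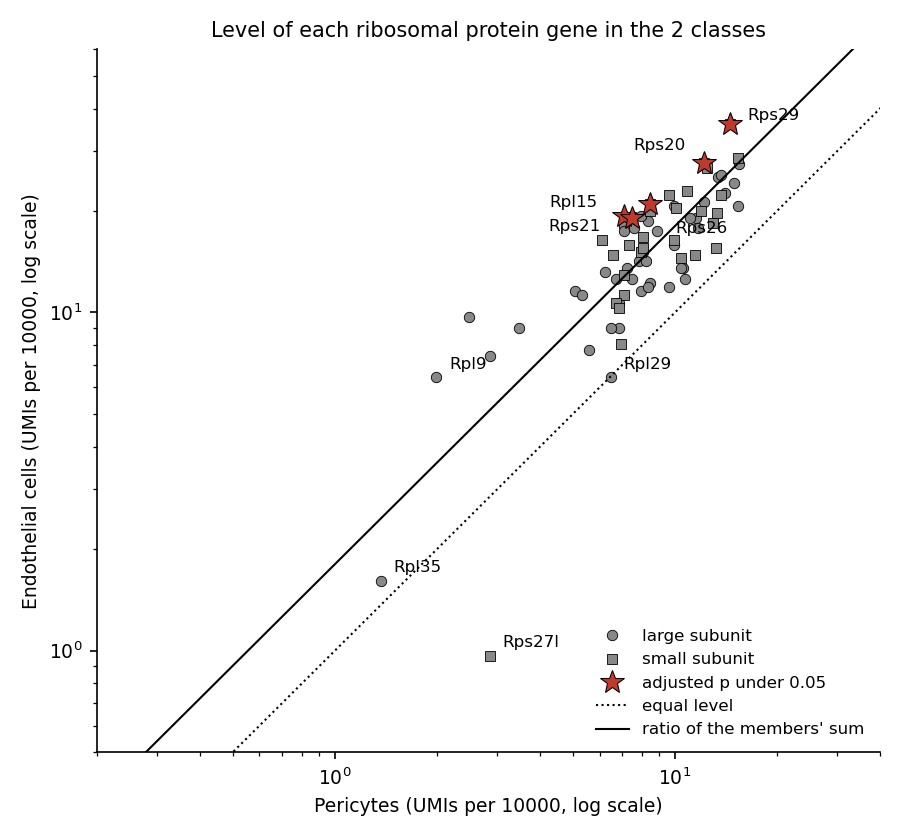
UMIs per 10000 of the 75 members with UMIs in both classes, pericytes on the x axis and endothelial cells on the y axis, both on log scales (circles, large subunit; squares, small subunit; stars, adjusted p under 0.05). Most points lie near the solid line, the 1.80-fold ratio of the members' sum, and few lie on or below the dotted line of equal level, among them Rpl29 and Rps27l.

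To find members that leave the shared ratio, the fit was repeated with the UMI sum of all members as the library size, so that a fold change of 0 is the ratio of the members as a whole. Here 5.41% of the 148 genes were higher in endothelial cells and 28.4% lower. Of the 56 members 0 were called in either direction by edgeR, with 0 higher and 1 lower at an unadjusted p under 0.05, and DESeq2 also called 0. The member with the lowest p was Rpl21, a large subunit protein, with a log2 departure of -0.78 (SE 0.39, adjusted p = 0.11 by edgeR). Its endothelial sums held 6.75, 13.1, 6.43 and 20.1 UMIs per 10000 and its pericyte sums 8.89, 13.9 and 12.8, and the groups overlapped. The departures ran from there to 0.71 for Rpl15, with an SE of 0.30 to 0.50 per gene. The latter had an adjusted p of 0.153 by edgeR, so departures of the size of both extremes were not called with 7 sums. With cells limited to a mitochondrial share under 5%, 1 member, Rpl21, was called lower.

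**Figure D4:**
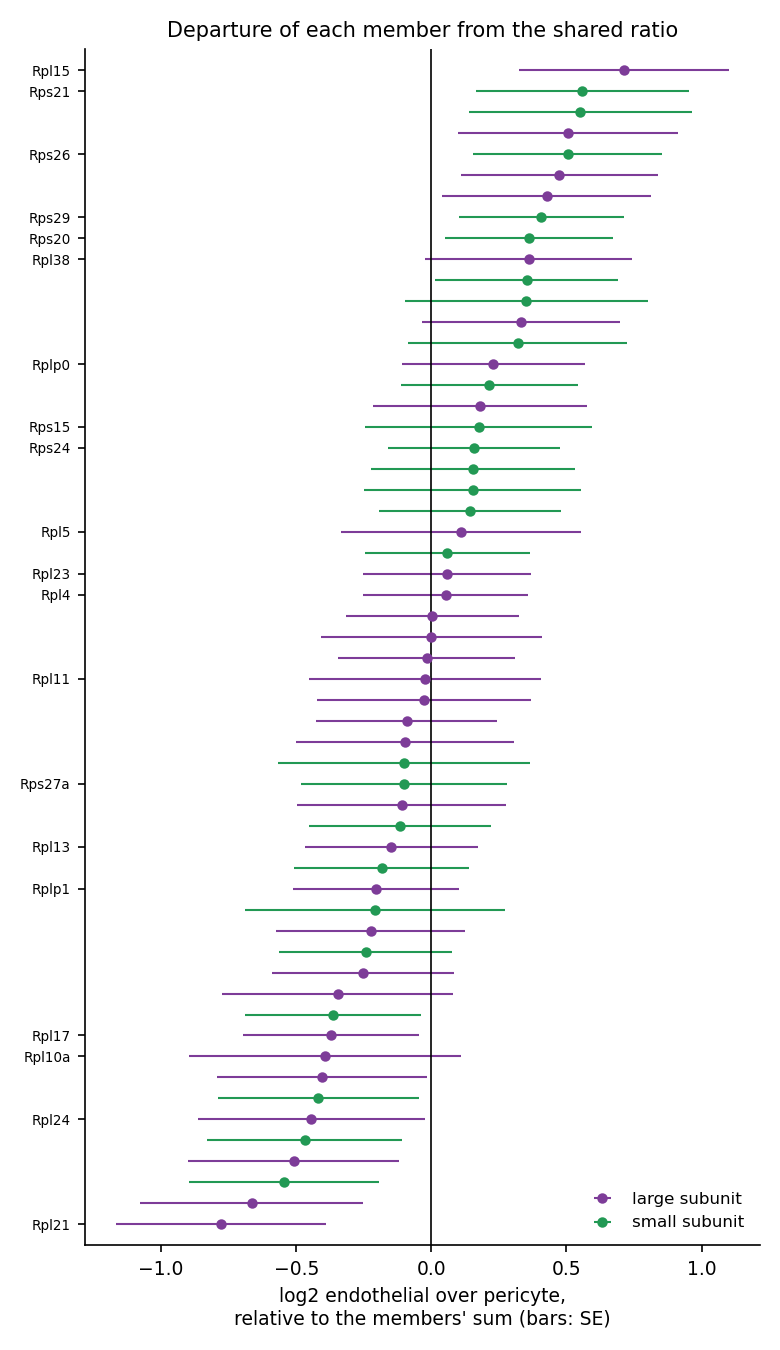
Log2 endothelial over pericyte relative to the members' sum for the 56 members tested (points with SE, purple for the large and green for the small subunit), sorted, with members described in the text labelled. The values run from -0.78 (Rpl21) to 0.71 (Rpl15), and no member passed an adjusted p of 0.05.

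Members with a role of their own are described next, in UMIs per 10000 and in the order of plates given for Rps29. The P stalk, which recruits elongation factors to the ribosome, is built from Rplp0, Rplp1 and Rplp2. Rplp0 held 20.3, 18.1, 12.9 and 29.0 in the endothelial sums against 10.8, 7.22 and 10.6 in the pericyte sums, without overlap, with a log2 fold change of 0.64 (SE 0.34, adjusted p = 0.14 by edgeR). Rplp1 held 23.6, 22.1, 12.9 and 34.6 against 14.5, 13.9 and 17.7, and the fl/fl CD31 endothelial sum was the lowest of all. Rplp2 was scarcer, with 5.07, 8.05, 3.21 and 16.7 against 4.14, 2.22 and 2.84, and was not tested. Its pooled log2 ratio was 1.37 (0.56 to 2.18) from 28 UMIs in each class.

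Rpl5 and Rpl11 form the 5S ribonucleoprotein, which also binds the p53 regulator MDM2 when ribosome assembly fails. Rpl5 held 13.5, 10.1, 11.2 and 15.6 in the endothelial sums against 7.24, 6.11 and 5.68 in the pericyte sums. Rpl11 held 3.38, 14.1, 14.5 and 19.0 against 6.62, 8.33 and 7.80, so its dEC/dEC CD31 endothelial sum lay below the pericytes. Their log2 fold changes were 0.51 (SE 0.45) and 0.41 (SE 0.42), neither with an adjusted p under 0.05.

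A further 5 members are known from work on ribosomes that favour some mRNAs. Rpl38, required for the translation of a group of Hox mRNAs, held 18.6, 10.1, 14.5 and 27.9 in the endothelial sums against 7.45, 6.66 and 9.22, without overlap, with a log2 fold change of 0.78 (SE 0.38, adjusted p = 0.105 by edgeR). The pooled log2 ratio was 1.19 (0.50 to 1.87) for Rpl22, 0.66 (-0.01 to 1.31) for Rps25, 0.53 (-0.078 to 1.13) for Rpl24 and 0.40 (-0.31 to 1.08) for Rpl10a, with intervals that overlapped. Rpl22 and Rps25 were not tested. In the fit, on its lower TMM scale, Rpl24 had a log2 fold change of -0.00 (SE 0.41) and Rpl10a one of -0.02 (SE 0.49). Rps27a, made as a fusion with ubiquitin, held 3.38, 15.1, 20.9 and 23.4 against 10.8, 8.88 and 8.51, the dEC/dEC CD31 plate being the low one, with a log2 fold change of 0.31 (SE 0.37).

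By level, the 10 most abundant members, among them Rps29, Rpl4, Rps20, Rps24, Rpl23, Rplp1, Rpl13 and Rpl17, together made up 21.97% of the members' UMIs in endothelial cells and 21.1% in pericytes. Pooled levels of this group were 20.6 to 36.1 UMIs per 10000 in endothelial cells and 12.2 to 15.4 in pericytes. Rpl23 had the smallest SDs of them, with 25.5 ± 1.09 (SD, n = 4 sums) in endothelial cells against 13.9 ± 0.949 (SD, n = 3 sums) in pericytes. These values rest on 79 and 110 UMIs, and the SDs were not compared with counting error, so they do not show a steadier gene. Rpl4 held 28.7, 25.1, 22.5 and 32.4 against 16.8, 12.2 and 14.9. The endothelial sums overlapped the pericyte sums in Rps24, Rplp1, Rpl13 and Rpl17.

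Paralogs of members were rare. Rpl10l and Rpl39l, known for their expression in testis, gave 1 UMI each, both in pericytes, and Rps27l, a p53 target, gave 3 UMIs in endothelial cells and 23 in pericytes, a pooled log2 ratio of -1.56 (-3.94 to 0.16). Other members have near-identical copies elsewhere in the genome. Of the 241 words of 60 bases in the last 300 bases of the transcript, 0 were unique to Rps27, Rpl10, Rpl29 or Rpl36a in the GENCODE transcripts, and 32 of the 80 members had under 50% unique words. Rps27 gave 1 UMI in all cells, and its copy Rps27rt 24 in endothelial cells and 60 in pericytes. Rpl10 gave 0 and 5 UMIs and its copy Rpl10-ps3 gave 16 and 22, and Rpl9 gave 20 and 16 and its copy Rpl9-ps6 39 and 40. Levels of these members and of the others with few unique words are uncertain. Among the others was Rps26, 1 of the 5 that rose, with 43.2% unique words. Rps27a, Rpl10a, Rpl24, Rpl38 and Rplp1, described by role above, had 13.7 to 38.6%. With the UMIs of 8 such copies added, the shares were 12.3% in endothelial cells and 6.86% in pericytes.

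Other genes of translation were also higher per UMI in endothelial cells, without a call in the fit. Ribosomal proteins outside the symbol rule (8 genes, among them Fau, made as a fusion with a ubiquitin-like protein) took 67.0 UMIs per 10000 in endothelial cells and 45.6 in pericytes, and 0 of 3 tested were called. Elongation factors (7 genes) took 83.4 and 48.1, with 0 of 2 called and a median log2 fold change of 0.42 against 0.02 for all genes tested. Eef1a1, which brings aminoacyl-tRNA to the ribosome, held 28.7, 47.3, 49.8 and 59.2 in the endothelial sums against 24.8, 27.8 and 30.5 in the pericyte sums (log2 fold change 0.35, SE 0.28). Other TOP mRNAs (12 genes) took 107 and 58.0, with 0 of 3 called. Initiation factors (31 genes) took 88.6 and 66.0, with 0 of 1 called.

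Genes that build or govern ribosomes were sparser. Ribosome biogenesis factors (40 genes) took 35.4 UMIs per 10000 in endothelial cells and 25.7 in pericytes, a pooled log2 ratio of 0.46 (0.11 to 0.80), and growth regulators of translation (16 genes) took 9.98 and 11.9, a ratio of -0.26 (-0.89 to 0.34). None of either list passed the filter. Ribosomal proteins of mitochondria (78 genes) took 42.5 and 37.7, a ratio of 0.17 (-0.13 to 0.47) that does not reach the 0.85 (0.79 to 0.91) of the cytosolic members. Of the 13 genes on the mitochondrial genome 11 were tested, 0 were higher and 1 was lower, mt-Nd2 (log2 fold change -0.94, SE 0.29, adjusted p = 0.00524 by edgeR), and the mitochondrial share was 4.36% in endothelial cells and 4.45% in pericytes.

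The design also set Gpr124 fl/fl beside Gpr124 dEC/dEC within each class. With 1 suspension per genotype no test was possible, and the values below carry counting error only. In endothelial cells members took 13.1% (12.6 to 13.6%) of UMIs in 5 fl/fl cells and 11.02% (10.5 to 11.5%) in 6 dEC/dEC cells, so that the ratio was 0.25 (0.16 to 0.34) on the log2 scale. The plates overlapped: 9.08 and 15.9% in fl/fl, and 9.69 and 11.8% in dEC/dEC. The direction rested on the fl/fl PDGFRB plate, whose 3 endothelial cells carried most of the globin UMIs. Without that plate the log2 ratio was -0.28, and without all cells with globin UMIs it was -0.39. Both settings left the same 2 fl/fl cells, at 5.73 and 12.2%. The globin setting also left out 3 dEC/dEC cells with 1 to 4 globin UMIs, at 5.71, 8.37 and 11.2%. In pericytes members took 6.35% (6.08 to 6.62%) in 9 fl/fl cells and 6.90% (6.68 to 7.13%) in 12 dEC/dEC cells, a log2 ratio of -0.12, with plates at 5.62 and 7.28% in fl/fl on either side of the dEC/dEC plate. The plates were mixed unequally: all 12 dEC/dEC pericytes came from the PDGFRB plate, but 6 of the 9 fl/fl pericytes from the CD31 plate. Within the PDGFRB plates, that is without the fl/fl CD31 plate, the log2 ratio was 0.076, opposite in sign to the pooled one. In endothelial cells the CD31 plates had 9.08% in fl/fl and 9.69% in dEC/dEC and the PDGFRB plates 15.9 and 11.8%, so the directions differed. Part of the dEC/dEC PDGFRB plate was filled by CD31, so the sort gate of its cells is not known. Plate, gate and genotype cannot be told apart in the pooled pericyte value. The part of the globin-bearing cells in these differences was not tested.

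Members stood apart between genotypes no more often than all genes did. In endothelial cells the interval of the ratio lay above 1 in fl/fl for 6 of 65 members with at least 30 UMIs (9.42% of 138 genes) and below for 0 (7.25%). In pericytes it lay above for 0 of 69 (2.6% of 423 genes) and below for 2 (6.15%). Rpl14 of the large subunit had 22 UMIs (exact Poisson interval 13.8 to 33.3) in fl/fl and 8 (3.45 to 15.8) in dEC/dEC endothelial cells, for a log2 ratio of 1.52 (0.30 to 2.90), and per 10000 its fl/fl plates held 14.5 and 14.5 and its dEC/dEC plates 3.38 and 6.04. Rpl13a had 42 UMIs (30.3 to 56.8) and 17 (9.90 to 27.2), a log2 ratio of 1.37 (0.52 to 2.27), but its fl/fl CD31 plate, at 12.9 per 10000, lay within the dEC/dEC plates at 6.75 and 13.1. Rpl35a, Rps27a and Rpl22 had log2 ratios of 1.23, 1.06 and 1.06. Rpl27, Rpl37, Rpl17 and Rpl27a had low ratios in endothelial cells, from -0.996 to -0.46, and the interval of each held 0. The lowest was that of Rpl27, -0.996 (-2.12 to 0.05).

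In pericytes Rps15, a small subunit protein, had 16 UMIs (9.15 to 26.0) in fl/fl and 48 (35.4 to 63.6) in dEC/dEC, a log2 ratio of -0.99 (-1.91 to -0.15). Rpl15, which rose in endothelial cells in the class test, had 15 (8.40 to 24.7) and 42 (30.3 to 56.8), a log2 ratio of -0.89 (-1.85 to -0.01), with 4.996 and 4.26 UMIs per 10000 in the fl/fl plates and 8.69 in the dEC/dEC plate. Rpl36, Rpl34 and Rpl26 followed at -0.87 to -0.76 with intervals that held 0. Rpl21, Rpl24, Rpl8, Rpl7 and Rps25 had the highest ratios in pericytes, from 0.59 down to 0.38, again with intervals that held 0. The highest was that of Rpl21, 0.59 (-0.05 to 1.23).

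**Figure D5:**
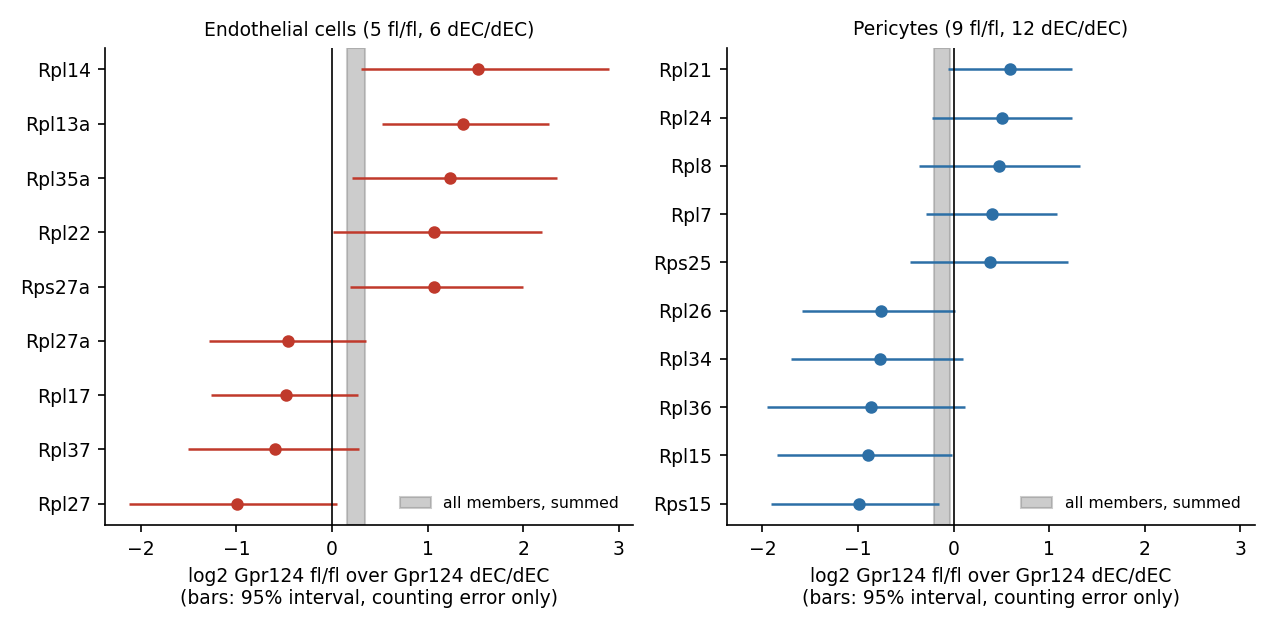
Log2 ratio of UMIs per 10000, Gpr124 fl/fl over Gpr124 dEC/dEC, for members among the 5 with the highest or the 5 with the lowest ratio in each class, of those with at least 30 UMIs (points; bars are exact conditional 95% intervals, counting error only). The grey band is the interval of all members summed, around 0.25 in endothelial cells and -0.12 in pericytes.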

How the data were processed

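SORT-seq libraries were made by the submitters from sorted single cells. Per the submitters' processing notes, reads were processed with STARsolo 2.7.11b on GRCm38, and the authors deposited estimated counts, which give UMIs for every gene in every well without normalization. The annotation release and the handling of reads that match several genes are not given in the sources used here. Estimated counts were rounded to whole UMIs, 92 spike-ins were left out of totals, and the authors' stated filters and marker rule were applied. These left other numbers of pericytes per genotype than the study gives, and the cause was not tested. UMIs were summed per class and plate and tested with edgeR 4.0.16 (glmQLFit, glmQLFTest, TMM, filterByExpr) in R 4.3.3, 2-sided, with Benjamini-Hochberg adjustment over all genes tested, class being the only term. SEs came from the fitted means and dispersions. DESeq2 1.42.0 was an alternative. Class scripts were tested on simulated data. Intervals are exact at the 95% level and cover counting error only, since cells are not replicates. Doublets were not called in 32 cells. The 3 wells with both markers and the 7 with neither were left out.

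Gene positions came from GENCODE M21 (GRCm38) and start sites from RefSeq. Members and lists were chosen with earlier results of these data known. The named members were those with an adjusted p under 0.05 (at most 10 per direction and fit), the 10 with the highest mean level, the 5 with the largest genotype ratio per direction and class with at least 30 UMIs, those of a list by role, and members without a UMI. Rpl21 in the class section, Rpl29, Rpl9, Rpl10, Rps27, Rpl36a and the spike-in scale were chosen after their values were seen. Alternatives changed the filters, scaling, test, member list or plates 1 at a time, and 3 were added after the data were seen: total UMIs as library size, TMM without members, and copies counted as members. Of other lists, genes with an adjusted p under 0.05 were named, at most 4 each. Some genes that this rule names are not reported here.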

Additional observations from a re-analysis of the deposited data

Results flagged for a closer look

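Of 4 sets of wells left out of the comparison, 2 held a share of ribosomal protein UMIs above that of the wells under 1000 UMIs (5.79%, 5.69 to 5.89%). In the 7 kept wells with neither Cldn5 nor Pdgfrb UMIs the share was 8.64% (8.10 to 9.21%), and 4.28 to 15.7% by well. In the 11 wells over 8000 UMIs it was 7.38% (7.21 to 7.54%), and 5.17 to 11.5% by well. The intervals of the other sets held that level, with 6.12% (5.74 to 6.52%) in the 3 wells with both markers and 5.59% (5.03 to 6.19%) in the 5 wells at or over the mitochondrial limit. Copies that share the 3′ end of a member held more UMIs than the member in 3 cases: 38 beside Rpl10, 79 beside Rpl9 and 84 beside Rps27, over both classes. In 29 values tested over the 4 endothelial sums no plate stood apart from the others by Dixon's criterion.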

How the results depend on the processing

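The count of 5 members higher in endothelial cells became 27 with total UMIs as the library size or TMM over other genes, 13 without scaling of plates, 8 with spike-ins in the totals, 9 with 500 to 8000 UMIs or no upper limit, 1 with DESeq2, and 0 without a filter on low counts, with class taken from the gate, or without cells of shared barcodes. With 1 plate left out it was 1 to 10. The count lower in endothelial cells was 0 in all of these. The 0 members that left the shared ratio became 1 (lower) at a mitochondrial share under 5%. Class taken from the gate, which had to count the CD31-sorted wells of the dEC/dEC PDGFRB plate as pericytes because their positions are not known here, gave shares of 7.20% and 8.30% in place of 12.04% and 6.68% and turned directions: the share ratio to 0.868, the members' median relative to all genes to -0.069, Rpl15 to -0.23, Rps21 to -0.27, Rps26 to -0.031, Rps29 to -0.17 and Rps20 to -0.22 (log2), and the genotype log2 ratios to -0.62 in endothelial cells and 0.31 in pericytes. Wells under 1000 UMIs had 5.79% in place of a class share. The endothelial genotype log2 ratio of 0.25 was 0.11 at a mitochondrial share under 5%, -0.39 without cells with globin UMIs and -0.28 to 0.53 with 1 plate left out. The pericyte value of -0.12 was -0.011 with no upper limit, -0.25 without shared barcodes, -0.23 without globin cells, -0.34 as a mean over cells and -0.30 to 0.076 with 1 plate left out. The cause was not tested.

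With 1 plate left out, the shares were 10.5 to 12.8% in endothelial cells and 6.35 to 6.99% in pericytes. Plate as a replicate block gave 6 members higher, 0 lower and 0 leaving the shared ratio. Replicate number 1 is the CD31 and 2 the PDGFRB plate in both genotypes, so the numbers mark no shared animals or day. They mark the gate except in the part of the dEC/dEC PDGFRB plate that was filled by CD31. Plates did not pair the classes by the check made: deviations of endothelial and pericyte sums of the same plate had r = 0.097, -0.00078 and 0.069 over 148 genes. Subtracting the members' median from the TMM fit gave departures with an SD of 0.34, as did the members' sum. Precision is limited by 11 and 21 cells and 7 sums, and no detection limit for single members was measured.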
